A study of Mus musculus with 6 samples.

Results

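The 10 genes described here encode regulators of mitochondrial biogenesis and of mitochondrial shape: Tfam, Tfb2m, Polrmt and Polg, which act on mitochondrial DNA (mtDNA), the nuclear respiratory factor genes Nrf1 and Gabpa, the fusion genes Mfn1, Mfn2 and Opa1, and the fission gene Dnm1l. They were chosen by name for these functions, with earlier results of these data known, and all 10 were found among the 47069 genes of the count files. RNA was measured in the inguinal subcutaneous white adipose tissue (SC-WAT) of 3 Egr1+/+ and 3 Egr1-/- female mice aged 2 weeks, with 1 library per mouse. All mice were on a C57BL/6 background, C57BL/6 J in the study's methods, and had no treatment. The Egr1-/- mice carried Egr1 alleles made by homologous recombination, in which a LacZ sequence sits in the 5′ untranslated region and a frameshift precedes the part that encodes the DNA-binding domain, and the Egr1+/+ mice carried the wild-type gene. The allele is constitutive, so every cell type of the fat pad lacked EGR1, and whole pads were sequenced, with all the cell types they held. The mice came from several litters, and 1 Egr1+/+ and 1 Egr1-/- mouse were littermates.

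Mitochondria carry their own small genome, which POLRMT transcribes with the help of TFAM and TFB2M and which the polymerase POLG copies. The nuclear genes for these proteins and for the respiratory chain are controlled in part by NRF1 and GABPA, and the coactivators PGC-1α and PGC-1β act with such factors when brown or beige adipocytes build the mitochondria they use to make heat. Mitochondria also fuse, through the mitofusins MFN1 and MFN2 in the outer membrane and OPA1 in the inner membrane, and divide, through the GTPase DRP1, the product of Dnm1l.

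In the deposited counts, 8 of the 10 genes had a higher fitted level in Egr1-/- than in Egr1+/+ SC-WAT and 2 a lower one, where 50.1% of all 17667 genes tested had a positive change and 49.9% a negative one. No gene of the 10 passed an adjusted p of 0.05 by edgeR (quasi-likelihood test), by which 0.017% of all genes, 3 in number, did so, and none passed it in DESeq2, in which 2.07% of all genes did. At an unadjusted p under 0.05 in DESeq2, Polrmt, Mfn1 and Mfn2 were called, 3 of 10 against 10.1% of all genes. At an unadjusted p under 0.05 in edgeR, 4 of the 10 genes were higher in Egr1-/- mice, Polrmt, Polg, Mfn1 and Mfn2, against 5.06% of all genes in that direction, and none was lower, against 5.6% of all genes. The same 4 genes were those whose 3 Egr1-/- values all lay above the 3 Egr1+/+ values, against 8.15% of all genes, and no gene of the 10 had its values arranged the other way round, against 8.1% of all genes. The median log2 fold change of the 10 genes was 0.25, and that of all genes tested was 0.00.

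The libraries held between 29661984 and 42357981 counts on genes, of which mitochondrial genes took 50.0% to 57.4% in Egr1+/+ mice and 54.9% to 66.3% in Egr1-/- mice. Egr1 itself was counted 353, 241 and 711 times in Egr1+/+ mice 1 to 3, against 103, 84 and 57 times in Egr1-/- mice 1 to 3, so every library matched its label in direction (adjusted p = 0.0878 by edgeR and 3.87e-10 by DESeq2). The shared adipocyte markers, 10 genes such as Adipoq and Plin1, summed to 7358 to 8238 CPM (counts scaled to library size) in Egr1+/+ mice and to 5859 to 6817 CPM in Egr1-/- mice, so markers of the labelled tissue were present in all mice. The 12 skeletal muscle markers summed to 2083, 5958 and 522 CPM in Egr1+/+ mice 1 to 3 and to 288, 1009 and 6183 CPM in Egr1-/- mice 1 to 3. Egr1+/+ mouse 2 and Egr1-/- mouse 3 thus stood apart by muscle transcripts, and the values of the 10 genes without both of them are given after the single genes.

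Because NRF1 and GABPA are themselves among the 10 gene products, the start regions of the 10 genes were searched for the letters these factors are known to bind. RefSeq windows of 250 bases before to 50 bases after each annotated start (build GRCm38.p6) were available for all 10 genes, 14 windows in all, and were read on both strands. The core bound by GABPA and other ETS factors, CCGGAAG, was found in 6 of the 10 genes, where 9.93% of all genes with a window held it. Those genes were Tfam, Polrmt, Polg, Gabpa, Mfn1 and Dnm1l, and they included 3 of the 4 genes under an unadjusted p of 0.05 in the comparison of genotypes, beside 3 genes with adjusted p above 0.7. The windows are shown 5′ to 3′ on the strand of the gene, with the match or its reverse complement in capitals.
Tfam: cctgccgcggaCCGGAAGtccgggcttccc
Polrmt: ccctaagagcgCTTCCGGcagtcgcagaac
Polg: gaggacctcacCCGGAAGtccctctgcacc
Gabpa: gagggtaagtgCTTCCGGgtccctcagcta
Mfn1: gatccgaagcgCCGGAAGtagccgccccta
Dnm1l: gctgtcgcttcCTTCCGGccgctgaggacg
The Tfam window (chr10:71238073-71238102, minus strand) and the Polg window (chr7:79466293-79466322, minus strand) lay in an annotated 5′ exon of their own gene in GENCODE M21. The Polrmt window (chr10:79746606-79746635, minus strand) and the Mfn1 window (chr3:32529427-32529456, plus strand) lay upstream of the gene in no annotated gene. The Gabpa window (chr16:84835020-84835049, plus strand) lay within its own gene, with 4 bases in an exon of it. It also lay in an exon of Atp5j on the opposite strand. The Dnm1l window (chr16:16358545-16358574, minus strand) lay within its own gene, with 1 base in an exon of it, and in an exon of the antisense gene Gm49521. Relative to the RefSeq start, the match began at position -47 in Tfam, -43 in Polrmt, -38 in Polg, -44 in Mfn1, -93 in Gabpa and 13 in Dnm1l, so 4 of the 6 lay within 10 bases of each other in distance from the start. The longer form CCGGAAGTG, which contains the core, was in none of the 10 genes and in 2.25% of all genes. With 1 mismatch allowed, the core CCGGAAG matched in 9 of the 10 genes and in 62.7% of all genes. The shares of all genes cover every gene with a window and were not matched to the 10 genes for expression or base content.

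The palindrome-like NRF1 letters GCGCATGCG, which overlap their own reverse complement, were found in Tfb2m and Opa1, and in 1.95% of all genes. These sequences are shown because they are the only exact matches among the 10 genes.
Tfb2m: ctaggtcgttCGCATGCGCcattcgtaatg
Opa1: gtggctccccGCGCATGCGcatgtcatccg
In the Tfb2m window (chr1:179546245-179546274, minus strand) the match began at position 13 from the RefSeq start, and 23 of the 30 bases shown lay in the annotated 5′ untranslated region. In the Opa1 window (chr16:29579265-29579294, plus strand) the match began at position -59, and the window lay in no annotated gene. Neither Tfb2m nor Opa1 passed an unadjusted p of 0.05. The YY1 letters AAGATGGCG were found in Gabpa alone (1.64% of all genes), and the EGR1 letters GCGTGGGCG (0.707% of all genes) and GCGGGGGCG (3.31%) in none of the 10 genes. A match is a description of letters, and its absence from these windows says nothing about binding elsewhere. With 1 mismatch allowed, the EGR1 letters matched in 2 and 5 of the 10 genes, in 15.2% and 25.08% of all genes.

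Among the mtDNA factors, Polrmt had the lowest p of the 10 genes, ranked 225 of 17667, and the tightest values. Polrmt encodes the RNA polymerase of mitochondria, which also makes the primers for mtDNA replication. It stood at 6.29, 6.19 and 6.22 CPM in the Egr1+/+ mice and at 9.16, 8.75 and 9.25 CPM in the Egr1-/- mice. The genotypes did not overlap, and the gap between them was several times the range within either. The mean was 6.23 ± 0.049 CPM (SD, n = 3) in Egr1+/+ and 9.05 ± 0.265 CPM in Egr1-/- mice, 1.45-fold higher with a 95% interval of 1.18 to 1.79. On the log2 scale the change of 0.54 (SE 0.133) had an unadjusted p of 0.00292 and an adjusted p of 0.227 by edgeR, and an adjusted p of 0.081 by DESeq2. These values rest on 186 to 305 counts per mouse, so counting error alone gives a coefficient of variation of 6.77% in the Egr1+/+ group, while the measured one was 0.787%. The Egr1+/+ mice were therefore closer together than random counting would place them on average, and their SD understates the error of Polrmt. It stayed between 0.52 and 0.57 when any 1 mouse was left out, and was 0.52 without Egr1+/+ mouse 2 and Egr1-/- mouse 3.

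Polg encodes the catalytic subunit of the mtDNA polymerase. Its values were 32.6, 38.8 and 35.8 CPM in Egr1+/+ mice and 40.5, 44.9 and 42.7 CPM in Egr1-/- mice. The genotypes did not overlap, but Egr1+/+ mouse 2 came close to Egr1-/- mouse 1. Polg had a log2 fold change of 0.26 (SE 0.111), 1.195-fold with an interval of 1.005 to 1.42, with an unadjusted p of 0.0451 and an adjusted p of 0.455 by edgeR. The change lay between 0.18 and 0.32 with any 1 mouse left out. Its unadjusted p was above 0.05 without Egr1+/+ mouse 1, Egr1+/+ mouse 3, Egr1-/- mouse 2 or Egr1-/- mouse 3, with the muscle covariate, with no filter on low counts and in DESeq2. Polg shares 921 exonic bases with Fanci on the opposite strand, and whether the counting used the strand is not given in the sources used here. Fanci had 44 to 77 counts per mouse against 1121 to 1544 for Polg.

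Tfb2m encodes the factor that opens the mtDNA promoter for POLRMT. It stood at 7.80, 7.86 and 6.56 CPM in Egr1+/+ mice and at 7.59, 7.91 and 10.7 CPM in Egr1-/- mice. Egr1-/- mouse 3 lay above the other 5 mice, which overlapped, and without that mouse the log2 fold change went from 0.24 (SE 0.177, adjusted p = 0.698 by edgeR) to 0.07. Tfb2m also has a near-identical copy, Gm1818, with 99.3% identity over 1187 bases on the same strand, so its reads could be split between them. Gm1818 held 3, 1 and 3 counts in Egr1+/+ mice, against 17, 8 and 5 counts in Egr1-/- mice, and the sum of both genes was 271, 237 and 286 against 270, 253 and 337 counts.

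Tfam encodes the protein that packs mtDNA and helps to start its transcription. Its values were 27.7, 25.7 and 25.24 CPM in Egr1+/+ mice and 25.51, 23.8 and 27.4 CPM in Egr1-/- mice. The genotypes overlapped throughout, and the highest value was that of Egr1+/+ mouse 1. The log2 fold change was -0.04 (SE 0.109, adjusted p = 0.934 by edgeR), 0.975-fold with an interval of 0.822 to 1.16, which leaves out a difference of the size measured for Polrmt.

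**Figure D1:**
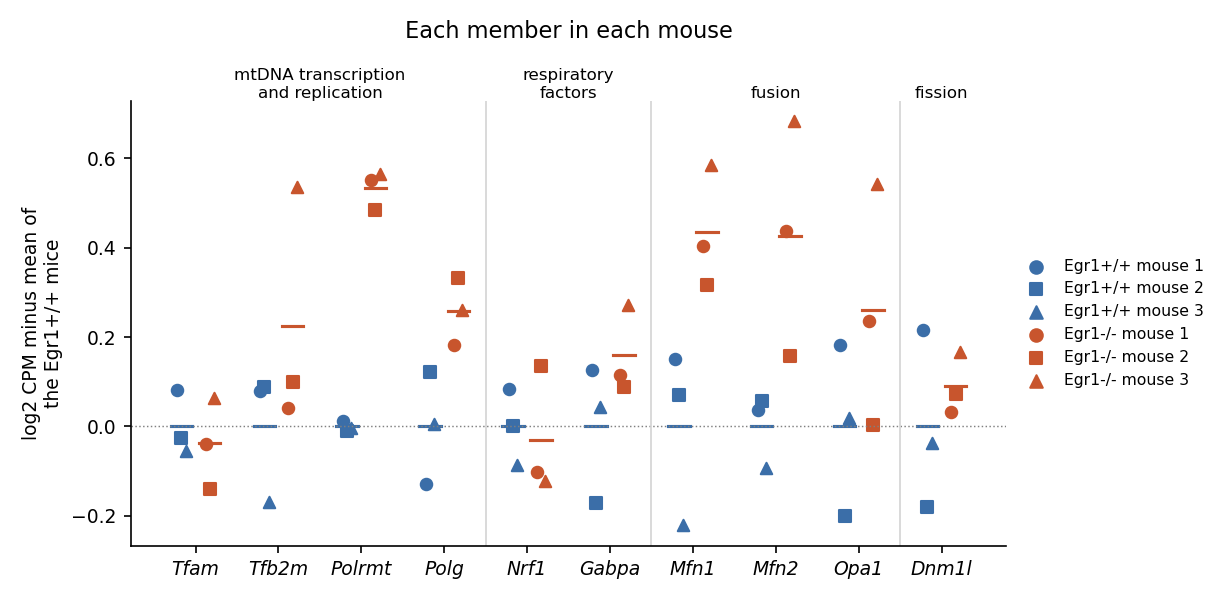
Level of each of the 10 genes in each mouse, as log2 CPM minus the mean of the 3 Egr1+/+ mice (vertical axis), with 1 symbol per mouse, horizontal bars for genotype means, and genes ordered by role. The Egr1-/- mice lie above all Egr1+/+ mice for Polrmt, Polg, Mfn1 and Mfn2, and Egr1-/- mouse 3 (orange triangle) is the highest mouse for 6 of the 10 genes.

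Neither nuclear respiratory factor gene separated the genotypes. Nrf1 encodes a transcription factor for many nuclear genes of the respiratory chain, and stood at 22.8, 21.5 and 20.3 CPM in Egr1+/+ mice and at 20.05, 23.6 and 19.8 CPM in Egr1-/- mice. The genotypes overlapped, with both the highest and the lowest value in Egr1-/- mice. Its log2 fold change was -0.03 (SE 0.119, adjusted p = 0.959 by edgeR), 0.982-fold with an interval of 0.816 to 1.18.

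Gabpa encodes the DNA-binding subunit of GABP, also called nuclear respiratory factor 2. It stood at 71.9, 58.5 and 67.9 CPM in Egr1+/+ mice and at 71.3, 70.0 and 79.5 CPM in Egr1-/- mice. Egr1+/+ mouse 1 lay above Egr1-/- mice 1 and 2, so the genotypes overlapped. The log2 fold change was 0.16 (SE 0.121, adjusted p = 0.715 by edgeR), 1.11-fold with an interval of 0.922 to 1.35. Gabpa shares 397 exonic bases with Atp5j, a subunit gene of ATP synthase on the opposite strand, which stood at 64.3 ± 8.06 CPM (SD, n = 3) in Egr1+/+ and 60.5 ± 9.21 CPM in Egr1-/- mice.

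The mitofusin genes differed most among the genes of dynamics. Mfn1 stood at 26.1, 24.7 and 20.1 CPM in Egr1+/+ mice and at 31.1, 29.2 and 35.2 CPM in Egr1-/- mice. The genotypes did not overlap, and Egr1-/- mouse 3 was the highest. Mfn1 had a log2 fold change of 0.43 (SE 0.134), 1.35-fold with an interval of 1.09 to 1.66, with an unadjusted p of 0.0103 and an adjusted p of 0.300 by edgeR. Leaving out any 1 mouse moved it between 0.33 and 0.49, and without Egr1+/+ mouse 3 its unadjusted p was 0.0516 by edgeR. Mfn1 exons hold repeat stretches of up to 176 bases that also occur in other genes, 114 in number at 95% identity or more.

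Mfn2, whose product also tethers mitochondria to the endoplasmic reticulum, stood at 69.6, 70.5 and 63.6 CPM in Egr1+/+ mice and at 91.9, 75.6 and 109 CPM in Egr1-/- mice. The genotypes did not overlap, but the Egr1-/- mice were spread more widely, with an SD of 16.7 CPM against 3.76 CPM in Egr1+/+ mice. The log2 fold change was 0.44 (SE 0.145), 1.36-fold with an interval of 1.08 to 1.70, with an unadjusted p of 0.0141 and an adjusted p of 0.323 by edgeR. Without Egr1-/- mouse 3, the highest of the group, it was 0.31 (unadjusted p = 0.0618 by edgeR), and without Egr1+/+ mouse 3 it was 0.39 (unadjusted p = 0.0567 by edgeR). Mfn1 and Mfn2 shared no stretch of 50 bases at 95% identity, so reads of one would not be expected to count for the other.

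Opa1, the most abundant of the 10 genes per length, encodes the GTPase that fuses inner membranes and keeps the cristae in shape. It stood at 132, 102 and 118 CPM in Egr1+/+ mice and at 137, 117 and 170 CPM in Egr1-/- mice. The genotypes overlapped, since Egr1-/- mouse 2 lay below Egr1+/+ mice 1 and 3. The log2 fold change was 0.27 (SE 0.164, adjusted p = 0.616 by edgeR), 1.21-fold with an interval of 0.932 to 1.56. It was 0.39 without Egr1-/- mouse 2 (unadjusted p = 0.0455 by edgeR), 0.12 without Egr1-/- mouse 3, and 0.02 without Egr1+/+ mouse 2 and Egr1-/- mouse 3, so the value was set largely by which mice were in the fit.

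Dnm1l was the fission gene of the list. It stood at 55.7, 42.3 and 46.7 CPM in Egr1+/+ mice and at 49.0, 50.4 and 53.8 CPM in Egr1-/- mice. The highest and the lowest value both came from Egr1+/+ mice, and the Egr1-/- mice lay between them. Its log2 fold change was 0.08 (SE 0.127, adjusted p = 0.865 by edgeR), 1.06-fold with an interval of 0.867 to 1.29, and it was -0.059 with total counts in place of TMM. Dnm1l overlaps the antisense gene Gm49521, which has no row in the count files, by 243 exonic bases.

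**Figure D2:**
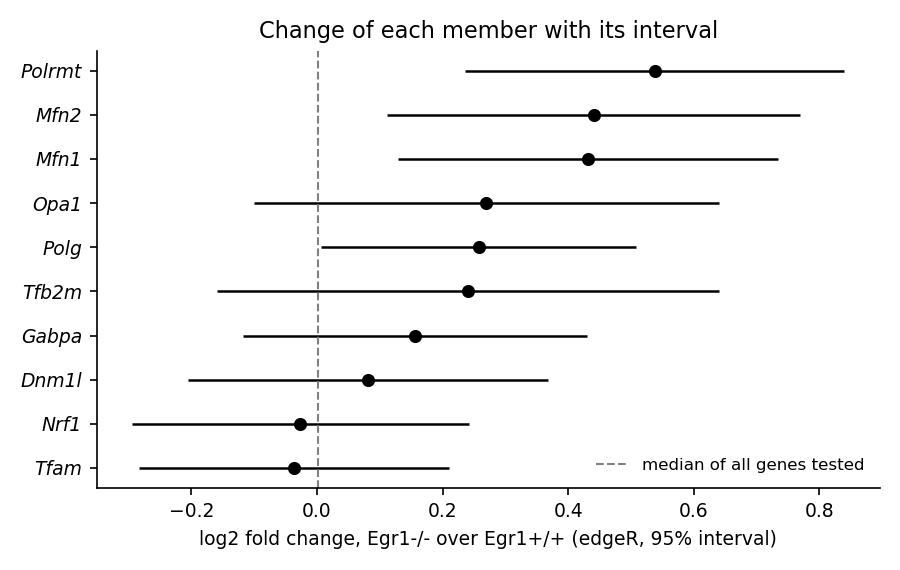
Log2 fold change of each of the 10 genes, Egr1-/- over Egr1+/+ (horizontal axis), from edgeR's quasi-likelihood fit of 3 against 3 mice, with lines for unadjusted 95% intervals and a dashed line at the median of all genes tested. The intervals of Polrmt, Mfn2, Mfn1 and Polg lie above 0, those of the other 6 genes include it, and no gene passed the adjusted threshold.

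The differences between fusion and fission genes, and between partners in the same step, were then compared as ratios within each mouse, which do not depend on library size. The ratio of Opa1 to Dnm1l counts was 2.38, 2.40 and 2.53 in Egr1+/+ mice, against 2.81, 2.32 and 3.16 in Egr1-/- mice. Egr1-/- mouse 2 fell below all Egr1+/+ mice, so the ratios overlapped, and the log2 difference was 0.17 (exact two-sided permutation p = 0.4). The ratio of Mfn2 to Dnm1l was 1.25, 1.67 and 1.36 against 1.88, 1.501 and 2.03, a log2 difference of 0.34 (exact permutation p = 0.2). The ratio of the 2 mitofusin genes, Mfn2 to Mfn1, overlapped between the genotypes, at 2.67, 2.86 and 3.16 against 2.96, 2.58 and 3.09, with a log2 difference of -0.01 (exact permutation p = 1).

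The ratio of Polg to Polrmt was the only one of the 6 ratios whose genotypes did not overlap. It was 5.19, 6.26 and 5.76 in Egr1+/+ mice, against 4.42, 5.14 and 4.62 in Egr1-/- mice, a log2 difference of -0.28 (exact permutation p = 0.1, the smallest that 3 mice against 3 allow, and 0.4 after Benjamini-Hochberg adjustment over the 6 ratios). The ratio of Tfb2m to Tfam differed by 0.26 on the log2 scale (exact permutation p = 0.2), with 0.281, 0.305 and 0.260 against 0.298, 0.332 and 0.392. The ratio of Gabpa to Nrf1 differed by 0.19 (exact permutation p = 0.4), with 3.15, 2.71 and 3.35 against 3.56, 2.96 and 4.02.

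Per kilobase of exon, the 10 genes spanned about an order of magnitude in Egr1+/+ SC-WAT. Opa1 came first at 14.9 ± 1.95 CPM per kb (SD, n = 3), followed by Mfn2 at 13.1 ± 0.723, Gabpa at 11.6 ± 1.21 and Dnm1l at 9.27 ± 1.31 CPM per kb. Each of these 4 genes overlapped with its neighbour in the order over the 3 mice. After a gap came Tfam at 5.91, Mfn1 at 3.86, Polg at 3.33, Tfb2m at 2.64, Nrf1 at 2.09 and Polrmt at 1.33 CPM per kb, and among these only the ranges of Mfn1 and Polg overlapped. The order was the same in Egr1-/- mice, but the neighbours whose ranges overlapped there were Opa1 and Mfn2, Tfam and Mfn1, Polg and Tfb2m, and Nrf1 and Polrmt, the last at 2.06 ± 0.210 and 1.93 ± 0.0566 CPM per kb. The genes of fusion and fission other than Mfn1 thus stood above all mtDNA factors in both genotypes. With the length of the longest transcript in place of all exons, Nrf1 moved to rank 6 in Egr1+/+ mice, at 5.33 CPM per kb, since its exons add up to much more than any of its transcripts.

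**Figure D3:**
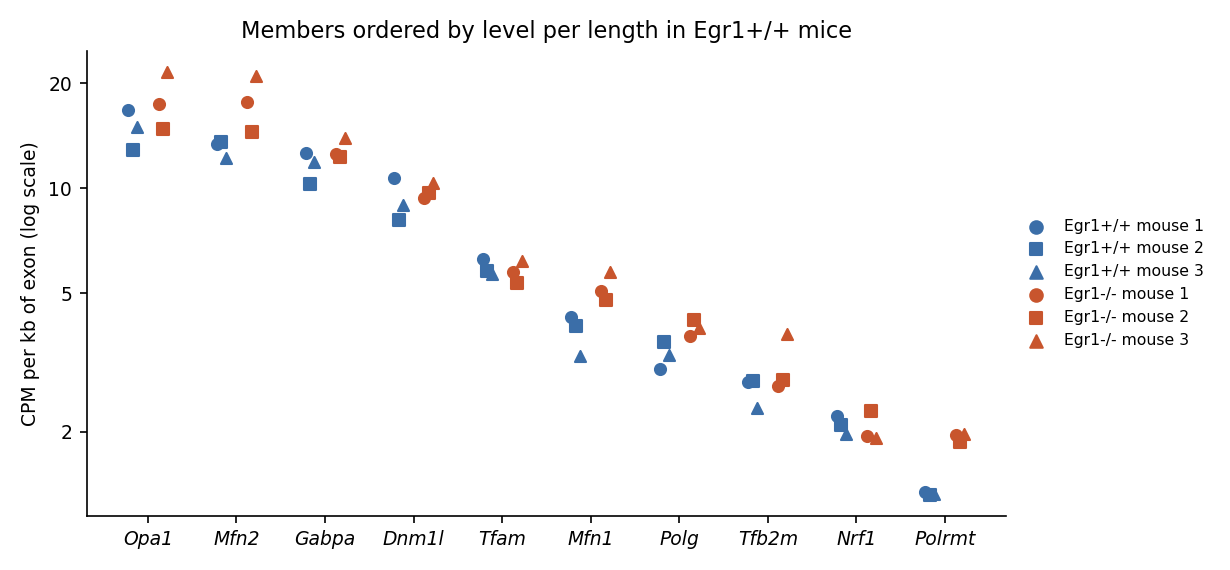
Level of each of the 10 genes per kilobase of exon (CPM per kb, log scale, vertical axis) in each mouse, ordered by the Egr1+/+ mean. Opa1, Mfn2, Gabpa and Dnm1l lie above the other genes, and Polrmt is lowest, with its Egr1-/- values near those of Nrf1.

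The mice differed among themselves in ways that several of the 10 genes shared. Egr1-/- mouse 3 was the highest of all 6 mice for Tfb2m, Polrmt, Gabpa, Mfn1, Mfn2 and Opa1, with a median of 0.40 above the Egr1+/+ mean over the 10 genes on the log2 scale, against 0.15 and 0.12 in Egr1-/- mice 1 and 2. Among the Egr1+/+ mice, mouse 1 lay above its group's mean for 9 of the 10 genes, mouse 2 for 5 and mouse 3 for 3. The fusion genes summed to 228, 197 and 202 CPM in Egr1+/+ mice and 260, 222 and 314 CPM in Egr1-/- mice, so the sums overlapped.

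Markers of several cell types also differed between the genotypes. The 10 beige and brown adipocyte markers summed to 718, 575 and 563 CPM in Egr1+/+ mice and to 1381, 981 and 1633 CPM in Egr1-/- mice. Of the 9 markers tested, all were higher in Egr1-/- mice at an unadjusted p under 0.05 in edgeR, against 5.06% of all genes. In 8 of them all Egr1-/- mice lay above all Egr1+/+ mice, against 8.15% of all genes. Ucp1, the uncoupling protein of thermogenic fat, stood at 341 ± 52.1 and 792 ± 197 CPM (SD, n = 3; adjusted p = 0.151 by edgeR). The 8 fibroblast and progenitor markers summed to 2593 to 2944 CPM in Egr1+/+ mice and 1536 to 2088 CPM in Egr1-/- mice. All 8 were lower in Egr1-/- mice without overlap, against 8.1% of all genes. From these same libraries the study had reported Ucp1, Cidea, Cox8b, Dio2 and Ppargc1a as upregulated, and Col1a1, Col1a2 and Dcn as downregulated. The beige and fibroblast lists were chosen with earlier results known, so their counts are a description and not an independent test. The macrophage markers summed to 284 to 365 CPM and 215 to 251 CPM. Of the 10 shared adipocyte markers, whose sums did not overlap between the genotypes either, 4 were lower and 1 was higher in Egr1-/- mice at an unadjusted p under 0.05 in edgeR. Over all genes these shares were 5.6% and 5.06%. Markers of endothelium (373 to 472 CPM and 343 to 514 CPM), lymphocytes (63.3 to 71.7 CPM and 55.3 to 140 CPM) and mammary epithelium (1.14 to 16.3 CPM and 5.69 to 9.97 CPM) overlapped between genotypes, and no marker was at 0 in all mice. In whole pads, fewer cells of a type and less RNA per cell cannot be told apart, and the part of these cell types in the values of the 10 genes was not tested.

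Muscle transcripts did not separate the genotypes, but their highest sum fell on Egr1-/- mouse 3, the mouse with the highest values of 6 of the 10 genes. Ckm, the creatine kinase of muscle, stood at 108, 338 and 20.2 CPM in Egr1+/+ mice and at 8.67, 24.5 and 239 CPM in Egr1-/- mice. Egr1+/+ mouse 2, with nearly as many muscle transcripts, was the lowest mouse for Gabpa, Opa1, Dnm1l and Polrmt. For Polrmt its 6.19 CPM lay close to the 6.22 CPM of Egr1+/+ mouse 3. The same mouse was the highest of the Egr1+/+ mice for Tfb2m, Polg and Mfn2. Both of these libraries were then left out, a choice made after the data had been seen. Of the 10 genes, 1, Polrmt, remained under an unadjusted p of 0.05 (adjusted p = 0.540 by edgeR), against 1568 of all 18100 genes tested. The median log2 fold change of the 10 genes was 0.066, and that of all genes was 0.018. In that fit the log2 fold change of Polrmt was 0.52, Mfn1 0.39, Mfn2 0.33, Polg 0.32, Tfb2m 0.11, Opa1 0.022, Nrf1 0.020, Gabpa 0.016, Dnm1l -0.044 and Tfam -0.10. The muscle markers were also used as a covariate in a fit of all 6 mice. The log2 fold changes of Polrmt, Mfn1 and Mfn2 were then 0.54, 0.48 and 0.48, and their unadjusted p stayed under 0.05 in edgeR. That of Polg, with a log2 fold change of 0.27, did not. Over all genes, 1802 of 17667 were under 0.05 in this fit.

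**Figure D4:**
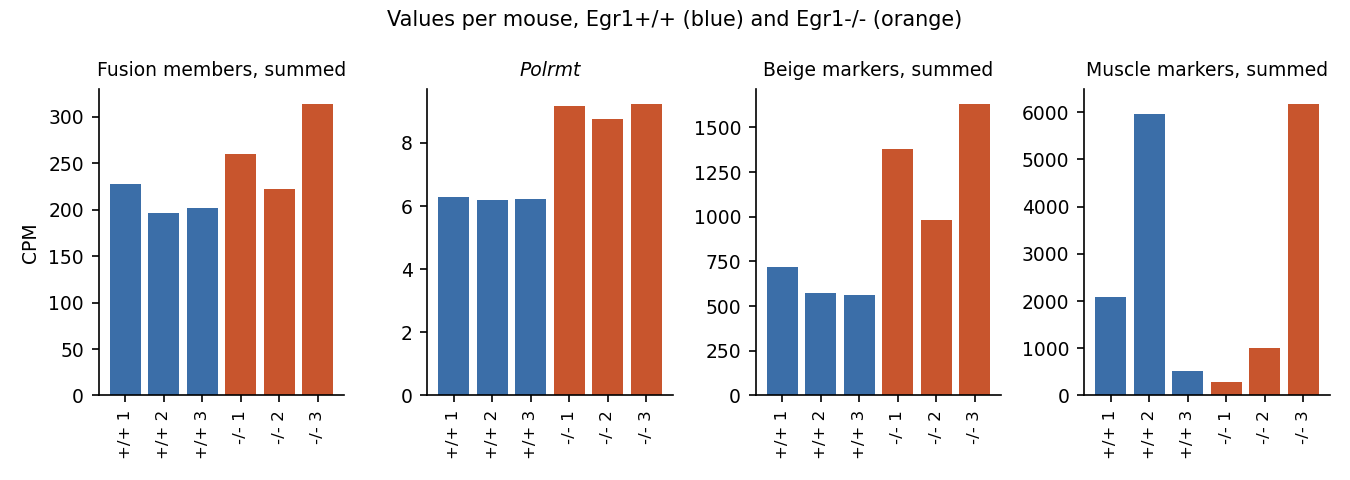
CPM per mouse (vertical axes from 0, on their own scales) of the 3 fusion genes summed, of Polrmt, of the 10 beige and brown adipocyte markers summed and of the 12 skeletal muscle markers summed. Polrmt and the beige markers separate the genotypes, the fusion genes overlap, and the muscle markers are highest in Egr1+/+ mouse 2 and Egr1-/- mouse 3.

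The genes that act with the 10 genes were described from lists by function. Of the upstream activators and coactivators, 17 of 18 were tested, 7 were higher in Egr1-/- mice at an unadjusted p under 0.05 in edgeR, against 5.06% of all genes, and none lower. The median log2 fold change of the list was 0.24. With total counts in place of TMM, 4 were under 0.05, against 1570 of all 17667 genes, and the median of the list was 0.10. With 1 mouse left out 5 to 8 were under 0.05, where all genes gave between 1190 of 18666 and 2366 of 18258. None of them passed the adjusted threshold in edgeR, and 4 did in DESeq2, against 2.07% of all genes. Ppargc1b, which encodes PGC-1β, had the lowest p of the list, at 14.4, 10.6 and 11.7 CPM in Egr1+/+ mice and 21.9, 20.1 and 27.2 CPM in Egr1-/- mice. The genotypes did not overlap, and the log2 fold change was 0.92 (SE 0.160, adjusted p = 0.155 by edgeR). Ppargc1a, which encodes PGC-1α and is also one of the beige markers, stood at 32.1, 19.9 and 36.4 CPM against 58.7, 48.4 and 79.7 CPM, a log2 fold change of 1.08 (SE 0.244, adjusted p = 0.193 by edgeR). Esrra, the gene of the estrogen-related receptor that PGC-1α coactivates, had a log2 fold change of 0.36 (adjusted p = 0.411 by edgeR) with no overlap of the genotypes. Gabpb1, the partner subunit of GABPA, had one of 0.17 (adjusted p = 0.748 by edgeR), close to that of Gabpa.

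No partner of the mtDNA factors had a log2 fold change as large as that of Polrmt. None of the 19 tested passed an unadjusted p of 0.05 in edgeR in either direction, against 10.7% of all genes. None passed the adjusted threshold in DESeq2, and their median log2 fold change was 0.11. Lrpprc, which stabilises mitochondrial mRNAs, had the lowest p, at 73.9 ± 7.20 CPM in Egr1+/+ and 92.3 ± 17.7 CPM in Egr1-/- mice (SD, n = 3; log2 fold change 0.32, adjusted p = 0.502 by edgeR). In 2 of the 19 genes all Egr1-/- mice lay above all Egr1+/+ mice, against 8.15% of all genes. In none did they lie below, against 8.1% of all genes. The 2 genes were Lrpprc and Primpol, the latter with a log2 fold change of 0.13 (adjusted p = 0.803 by edgeR). Primpol encodes a primase that also acts on mtDNA, and it is named for these values after they were seen. The other partners overlapped between the genotypes. Twnk, the mtDNA helicase, had a log2 fold change of 0.12, Polg2, the accessory subunit of the polymerase, one of 0.18, and Ssbp1, which coats single strands of mtDNA, one of -0.13. Tefm, the elongation factor of POLRMT, had a log2 fold change of 0.11 and Tfb1m, the methyltransferase related to TFB2M, one of 0.13.

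The mRNAs that POLRMT makes were measured in the same libraries. The 13 mtDNA-encoded mRNAs summed to 61225, 54913 and 36955 CPM in Egr1+/+ mice and to 73697, 51413 and 44276 CPM in Egr1-/- mice, and the genotypes overlapped. Of the 11 tested, 1 was higher at an unadjusted p under 0.05 in edgeR, against 5.06% of all genes, and none was lower, against 5.6%. The higher one was mt-Nd3, for a subunit of complex I, with a log2 fold change of 0.46 (adjusted p = 0.444 by edgeR). A positive log2 fold change was found in 10 of the 11, against 50.1% of all genes, with a median of 0.39. The median over the 11 was 0.049 without Egr1-/- mouse 1, 0.17 without Egr1+/+ mouse 3 and 0.72 without Egr1+/+ mouse 1. With the replicate number as a block, 5 of the 11 were under an unadjusted p of 0.05 in edgeR, against 1909 of all 17667 genes. With no filter on low counts, by which all 13 were tested, 5 were, against 2864 of all 38261 genes. The counts of 4 of these genes were very low beside the rest: mt-Co2 held 6 to 97 counts per mouse, mt-Atp6 65 to 197, mt-Co3 4 to 11 and mt-Nd4l at most 1, while mt-Co1 held 733424 to 1193841. How reads that fit several places were counted is not given in the sources used here. Of these 4 genes, mt-Co3 and mt-Nd4l were not tested, while mt-Co2 and mt-Atp6 are among the 11 tested. Without these 4 genes, 9 genes were left, of which 8 had a positive log2 fold change, with the same median of 0.39.

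The partners of fusion and of the inner membrane were more often higher than lower in Egr1-/- mice. All 16 were tested, 7 were higher in Egr1-/- mice at an unadjusted p under 0.05 in edgeR, against 5.06% of all genes, and none lower. The median log2 fold change of the list was 0.26. With total counts in place of TMM, 1 of the 16 was under 0.05, against 1570 of all 17667 genes. The number was 2 to 6 with 1 mouse left out. It was 2 without Egr1-/- mouse 3, against 1190 of all 18666 genes, and 3 without Egr1+/+ mouse 3, against 1379 of all 18192. Miga2, whose product promotes fusion at the outer membrane, stood at 22.8, 29.6 and 26.2 CPM in Egr1+/+ mice and at 47.7, 36.4 and 50.7 CPM in Egr1-/- mice, without overlap. Its log2 fold change was 0.78 (SE 0.154), with an adjusted p of 0.160 by edgeR and 0.00168 by DESeq2. The proteases that cut OPA1 differed least, with a log2 fold change of -0.00 for Oma1 (adjusted p = 0.995 by edgeR) and -0.01 for Yme1l1 (adjusted p = 0.979 by edgeR).

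Among the fission partners of DRP1, 11 of 12 were tested. At an unadjusted p under 0.05 in edgeR, 3 were higher and 1 lower in Egr1-/- mice, against 5.06% and 5.6% of all genes. Their median log2 fold change was 0.24. Mtfp1, an inner membrane protein of fission, had the lowest p, at 2.52 ± 0.363 and 4.59 ± 1.22 CPM (SD, n = 3; log2 fold change 0.86, adjusted p = 0.257 by edgeR). The receptors that bring DRP1 to the outer membrane differed among themselves. Mief1 had a log2 fold change of 0.40 (adjusted p = 0.303 by edgeR) and its paralog Mief2, named after its values were seen, one of 0.40 (adjusted p = 0.503 by edgeR), and in neither did the genotypes overlap. Mff had a log2 fold change of 0.19 and Fis1 one of -0.15, and in both the genotypes overlapped. In the mitophagy list, 1 of 12 genes was higher and 1 lower at an unadjusted p under 0.05 in edgeR, near the 5.06% and 5.6% of all genes. The median of that list was -0.09. Bcl2l13, a mitophagy receptor, had the lowest p (log2 fold change 0.34, adjusted p = 0.340 by edgeR), while Pink1, the kinase that marks damaged mitochondria, had a log2 fold change of -0.11 and Bnip3, another receptor, one of -0.22.

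**Figure D5:**
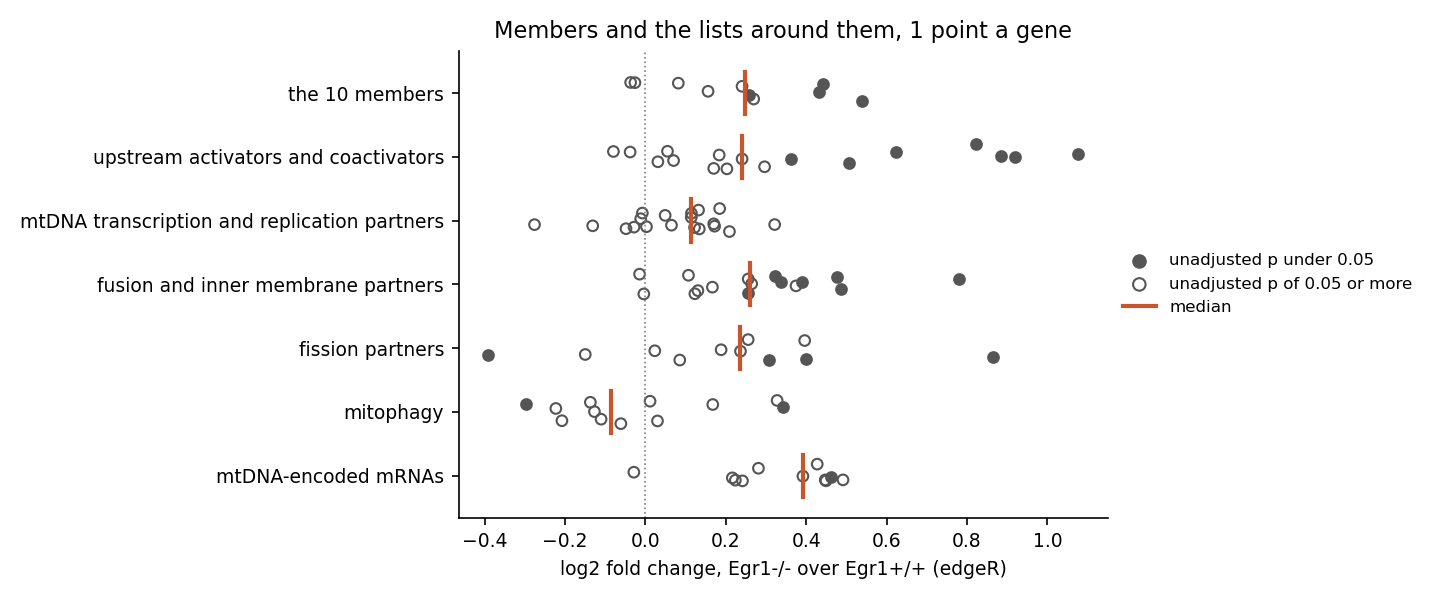
Log2 fold change, Egr1-/- over Egr1+/+ (horizontal axis), of the 10 genes and of 6 lists of related genes, with 1 point per gene tested, filled at an unadjusted p under 0.05 in edgeR, and an orange line at the median of each list. The medians run from -0.09 for mitophagy to 0.39 for the mtDNA-encoded mRNAs, and 7 points each are filled among the upstream activators and the fusion partners, all to the right.

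Some of the 10 genes start close to another gene on the opposite strand. The start of Cnst lies 103 bases upstream of that of Tfb2m, and Cnst, a trafficking receptor for gap junction proteins, stood at 34.2 ± 0.843 CPM in Egr1+/+ and 44.1 ± 2.40 CPM in Egr1-/- mice (SD, n = 3). Its genotypes did not overlap, and its log2 fold change of 0.37 (SE 0.101, adjusted p = 0.252 by edgeR) stood beside 0.24 for Tfb2m, whose genotypes overlapped. Gm10616, which starts 47 bases from Polg, held only 11 to 24 counts per mouse, with a log2 fold change of -0.61 (SE 0.411, adjusted p = 0.655 by edgeR).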

How the data were processed

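SC-WAT RNA was depleted of ribosomal RNA, made into strand-specific libraries and sequenced on an Illumina HiSeq, as single-end reads per the labels and paired-end reads per the study's methods. The authors mapped reads to GRCm38 with TopHat2 and Bowtie2, assigned them to GENCODE M8 genes with featureCounts and deposited raw counts per gene, 1 file per mouse. The strand and multimapping settings of the counting are not given in the sources used here.

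Genes were named by Ensembl identifier in GENCODE M21 (46574 of 47069 matched). Counts were fitted in R 4.3.3 with edgeR 4.0.16 (TMM, filterByExpr, quasi-likelihood test, no covariate), with Benjamini-Hochberg adjustment over 17667 genes and a threshold of 0.05, and CPM uses TMM library sizes. log2 CPM used a prior count of 2. DESeq2 1.42.0 and limma 3.58.1 gave alternatives, blastn 2.17.0 sequence identity, and the tests were tried on simulated data. Intervals are unadjusted. Promoter windows are RefSeq sequences. With 3 mice per group, the p-values of the fits set the difference between genotypes against the spread between mice. The fits estimate that spread with information from all genes tested. The 10 genes and the lists were chosen with earlier results of these data known. Named outside the 10 are regulators and partners listed by hand, the gene with the lowest p of each list, close divergent neighbours, and Egr1, Ucp1 and Ckm. Overlapping and near-identical genes are named for their sequence. Which of the mice were littermates is not given in the sources used here, so the main fit had no block.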

Additional observations from a re-analysis of the deposited data

How the results depend on the processing

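No gene of the 10 passed the adjusted threshold in any of the settings tried: other normalizations and filters, DESeq2, limma-voom, the mitochondrial chromosome left out, a muscle covariate, a replicate block, and each mouse left out. The number under an unadjusted p of 0.05 was 4, against 1884 of all 17667 genes. With total counts in place of TMM it was 0, against 1570 of all 17667 genes. That scaling moved the median of all genes to -0.147. It moved the median of the 10 genes from 0.25 to 0.12, so that it stayed above the median of all genes. Leaving out 1 mouse gave 1 to 4 genes and a median of 0.11 to 0.29. Over all genes it gave between 1190 of 18666 (without Egr1-/- mouse 3) and 2366 of 18258 (without Egr1-/- mouse 1). Without Egr1+/+ mouse 3 there was 1 gene of the 10, Polrmt, against 1379 of all 18192. Without Egr1-/- mouse 3 there were 2, Polrmt and Mfn1, and the median of the 10 genes was lowest. Without both muscle-rich libraries, a setting added after the data were seen, there was 1 gene, against 1568 of 18100, and the median was 0.066. Polrmt stayed under 0.05 in all settings but total counts (unadjusted p = 0.125 by edgeR).

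Signs turned in genes near 0. Dnm1l was -0.059 with total counts and -0.044 without the muscle-rich libraries, and Nrf1 was 0.020 without them. Leaving out 1 mouse gave -0.0034 to 0.183 for Dnm1l (lowest without Egr1+/+ mouse 2), -0.109 to 0.022 for Nrf1 (above 0 without Egr1+/+ mouse 1, Egr1-/- mouse 1 or Egr1-/- mouse 3), -0.088 to 0.017 for Tfam (above 0 without Egr1-/- mouse 2), and -0.066 to 0.066 for the log2 ratio of Mfn2 to Mfn1 (above 0 without Egr1+/+ mouse 3 or Egr1-/- mouse 2). The causes were not tested. With no filter on low counts, 4 upstream activators, 1 fission partner and 1 fusion partner passed the adjusted threshold, against 552 of all 38261 genes. In DESeq2 4 upstream activators and 1 fusion partner did, against 366 of all 17667 genes. With total counts, the genes under an unadjusted 0.05 numbered 4 of 17 upstream activators, 1 of 16 fusion partners and 2 of 11 fission partners. Over all genes they numbered 1570 of 17667. The medians of these 3 lists were 0.10, 0.12 and 0.067.

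The deviations of same-numbered mice had correlations of -0.0888, 0.106 and -0.126, with its own number the best match for replicate 2 alone. Which mice were littermates is not given, so these values cannot tell whether a number marks a litter. In the fit blocked on replicate number, the 10 genes had 4 under an unadjusted 0.05, none adjusted, and a median of 0.24, and Polrmt had an adjusted p of 0.298 in edgeR. The block moved the mtDNA-encoded mRNAs under an unadjusted 0.05 from 1 to 5 of 11, and all genes from 1884 to 1909 of 17667. Over all genes, adjusted calls numbered 3 in edgeR, 366 in DESeq2, 552 with no filter, 79 with total counts, 59 without Egr1-/- mouse 1, 6 with the muscle covariate, 1 in limma-voom and 0 with the block.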
